A study of Mus musculus with 8 samples.

Results

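Both arms of the miR-203 and miR-205 hairpins were followed in embryonic footpad skin of Dicer conditional knockout and wild-type mice. The 4 mature miRNAs were found by their names on the array, out of 1881 mouse miRNAs printed there: mmu-miR-203-3p and mmu-miR-203-5p from 1 hairpin, mmu-miR-205-5p and mmu-miR-205-3p from the other, called below without the species prefix. They were read by 10 of the 4415 mouse probes, on 120 of the 56430 mouse spots of each array. All 4 were among the 385 miRNAs that were detected well enough to be tested.

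The study compared Dicer conditional knockout (Dicer cKO) with wild-type (WT) footpads, in the series' own terms a question about sweat gland development. Footpad skin was taken at the embryonic days E16.5 and E17.5 from mice on a C57BL6 background. Each of the 8 samples was RNA from a pool of 3 to 5 embryos, hybridised in 1 colour (Cy3) to an Agilent miRNA array. There were 2 such pools for each genotype at each stage: Dicer cKO E16.5, WT E16.5, Dicer cKO E17.5 and WT E17.5. The labels used here name neither the Cre line, nor its promoter, nor the cells that lost Dicer, and they give no sex or litter of the pooled embryos. Whether pools came from the same litter is not known, so p-values measure the spread between these pools. In whole footpads, fewer cells of a type and less of a miRNA per cell cannot be told apart.

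Dicer cuts the loop off a hairpin precursor and leaves a duplex of its 5p and 3p arms, of which usually 1 arm, the guide, is loaded into Argonaute and accumulates while the other, the passenger, is degraded. miR-203-3p and miR-205-5p are the guide arms of their hairpins. miR-203 is abundant in the layers of stratified epithelium that have left the basal layer, where in mouse skin it represses p63 and favours exit from the cell cycle. miR-205 is abundant in basal and progenitor keratinocytes, acts on PI3K signalling in mouse skin stem cells, and shares with the miR-200 family the repression of Zeb1 and Zeb2, regulators of the epithelial state.

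The mature sequences are shown because the arms of 1 hairpin are separate molecules with separate targets. They are RefSeq entries on GRCm38.p6, written 5′ to 3′ with the seed, bases 2 to 8, in capitals. All 4 members matched the table by name.
miR-203-3p: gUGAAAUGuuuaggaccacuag
miR-203-5p: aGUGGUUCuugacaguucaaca
miR-205-5p: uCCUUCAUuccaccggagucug
miR-205-3p: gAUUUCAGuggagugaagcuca
The 4 seeds differ from each other, and none of them occurs in another of the 1679 mature mouse names of that table. By name, 332 of the 385 tested miRNAs were in the table, and none of these shared a seed with a member.

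The 2 hairpins are shown whole, with both mature arms in capitals, because the comparison of arms rests on their common origin. Mir203 lies at chr12:112130880-112130955 on the plus strand and Mir205 at chr1:193507463-193507530 on the minus strand (GRCm38.p6).
Mir203: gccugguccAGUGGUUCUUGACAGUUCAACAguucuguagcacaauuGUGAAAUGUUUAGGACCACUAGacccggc
Mir205: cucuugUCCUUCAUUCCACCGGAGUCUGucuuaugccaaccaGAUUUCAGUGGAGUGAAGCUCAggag
Mir205 lies inside the long non-coding RNA gene Mir205hg (chr1:193506460-193510210), while no annotated gene spans the whole of Mir203. A second miRNA gene, Gm51289, overlaps Mir203 in that annotation. The 5p and 3p arms are separated by 16 bases in Mir203 and by 14 bases in Mir205.

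The probe read for each arm is shown because its length sets which part of the miRNA it can see. Capitals mark the probe bases that pair with the seed.
Probe for miR-203-3p: ctagtggtcctaaaCATT
Probe for miR-203-5p: tgttgaactgtcaaGAACCAC
Probe for miR-205-5p: cagactccggtggaAT
Probe for miR-205-3p: tgagcttcactccaCT
The files place them on mm9 at chr12:113369143-113369159, chr12:113369102-113369121, chr1:195333670-195333684 and chr1:195333706-195333720, each span 1 base shorter than its probe. Every probe pairs without a mismatch with the 3′ end of its miRNA. The miR-205 probes pair with bases 7 to 22 and so see only 2 bases of the seed, the miR-203-3p probe pairs with bases 5 to 22, and the miR-203-5p probe with bases 2 to 22. The miR-205-3p probe shares a run of 10 paired bases with 1 other mature miRNA, miR-6397, whose own probes were detected on 0 of 8 arrays.

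Signals were background-subtracted spot intensities, averaged over the spots of a probe and then scaled, so that a value of 1 stands for each array's 75th percentile among the 474 probes seen on every array. Detection of a probe required more than a 0.5 share of its spots to lie well above background. Scaled values under 0.0528 (-4.24 on the log2 scale) were set to that floor. Replicate arrays correlated with r between 0.9975 and 0.9990 over the 385 tested miRNAs, and the number of miRNAs detected on an array ran from 279 to 384. It was lowest on the replicate 2 arrays of E16.5, at 281 in cKO and 279 in WT footpads. All arrays were on 1 slide, with each group in a column of its own, so that group and place on the slide cannot be told apart. Dicer1 itself was not measured by these arrays.

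mmu-miR-203-3p, the guide arm of miR-203, was among the most reduced miRNAs in cKO footpads. At E16.5 its probe gave intensities of 432 and 456 in the cKO pools, against 4554 and 3287 in the WT pools. At E17.5 it gave 401 and 518 in the cKO pools, against 6135 and 7235 in the WT pools. Each of the 4 cKO arrays lay far below each of the 4 WT arrays. On the scaled signal, miR-203-3p stood at 1.54 ± 0.057 in cKO and 11.51 ± 0.077 in WT footpads at E16.5 (SD, n = 2 each). At E17.5 it stood at 1.18 ± 0.280 in cKO and 13.04 ± 1.18 in WT footpads (SD, n = 2 each). The log2 change, cKO minus WT over both stages, was -3.19 ± 0.117 (SE; limma, adjusted p = 3.45e-05 over all tested miRNAs), so that cKO footpads held 10.96% of the WT level. This was the 2nd lowest change of the 385 miRNAs. Ranks given here depend in part on the floor, which limits the change of miRNAs that are faint in a genotype.

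mmu-miR-205-5p, the guide arm of miR-205, fell to much the same extent. At E16.5 its probe gave 447 and 494 in the cKO pools, against 4480 and 3392 in the WT pools. At E17.5 it gave 431 and 514 in the cKO pools, against 6151 and 6916 in the WT pools. As with miR-203-3p, the genotypes did not overlap at either stage. The scaled signal was 1.64 ± 0.115 in cKO and 11.6 ± 0.472 in WT footpads at E16.5, and 1.21 ± 0.221 in cKO and 12.8 ± 0.726 in WT footpads at E17.5 (SD, n = 2 each). The change over both stages was -3.12 ± 0.0949 on the log2 scale (SE; limma, adjusted p = 2.27e-05), which left 11.54% of the WT level, the 4th lowest change. No alternative that was tried ended either call: over 25 of them the change ran from -3.67 to -3.06 for miR-203-3p and from -3.60 to -2.99 for miR-205-5p.

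mmu-miR-203-5p, the passenger arm of miR-203, was detected in WT footpads and not in cKO footpads. Its 21-base probe gave 10.6 and 8.23 in the cKO pools of E16.5, against 81.4 and 59.2 in the WT pools. At E17.5 it gave 10.1 and 12.7 in the cKO pools, against 111 and 128 in the WT pools. All 4 cKO arrays missed detection, with at most 2 of 7 spots well above background, and were set to the floor. All 4 WT arrays were detected, with each of 7 spots well above background. The fitted change was -2.05 ± 0.0371 (SE; limma, adjusted p = 5.66e-06), but its size is set by the floor. With all 4 cKO values at that constant, the SE and p hold no spread between cKO pools. They cannot be compared with those of the guide arms. miR-203-5p was tested only because WT arrays detected it, so its call lower was largely fixed by that detection. As a bound, from the lowest detected signal of each cKO array, miR-203-5p was at least 4.38-fold lower in cKO footpads over both stages. Stage by stage, it was at least 5.89-fold lower at E17.5 and at least 3.26-fold lower at E16.5. With a normexp background correction and an offset of 50 the change was -0.82, and with the values of the authors' deposited table it was -2.84, both still past the threshold.

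mmu-miR-205-3p, the passenger arm of miR-205, was faint in both genotypes and moved the other way. At E16.5 its probe gave 29.8 and 33.4 in the cKO pools, against 25.6 and 16.4 in the WT pools. At E17.5 it gave 39.9 and 51.4 in the cKO pools, against 32.1 and 35.2 in the WT pools. Within each stage every cKO array was above every WT array, before scaling as well, while across stages the unscaled intensities overlapped. The scaled signal was 0.110 ± 0.0086 in cKO and 0.0610 ± 0.0048 in WT footpads at E16.5, and 0.118 ± 0.0277 in cKO and 0.0657 ± 0.0026 in WT footpads at E17.5 (SD, n = 2 each). It was detected on 7 of 8 arrays, the exception being WT E16.5 replicate 2, where 0 of 15 spots were well above background. The change over both stages was 0.83 ± 0.121 (SE; limma, adjusted p = 0.00306), or 178% of the WT level, the 3rd highest of the 385.

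**Figure D1:**
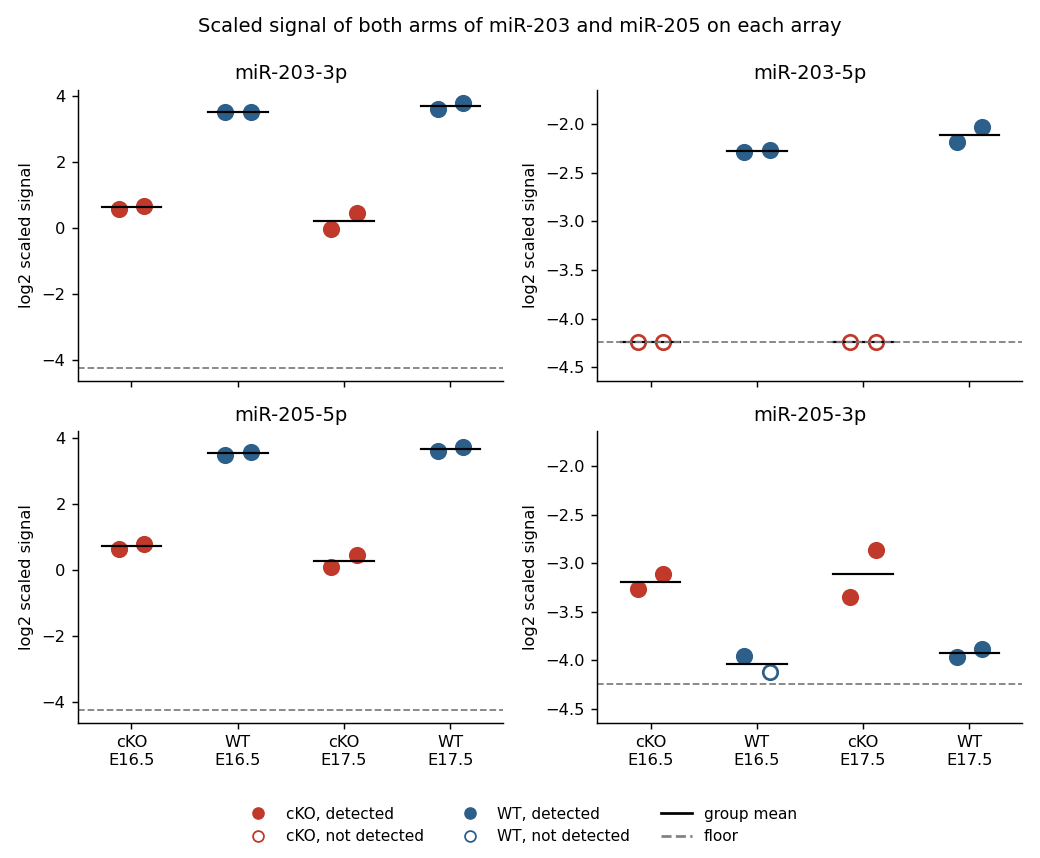
Scaled signal (log2, y axis) of the 4 miRNAs on each of the 8 arrays, with Dicer cKO to the left of WT at each stage (x axis); points are pools of embryos, black lines are group means, open points were not detected, and the dashed line is the floor at -4.24. miR-203-3p and miR-205-5p lay far lower in cKO footpads, miR-203-5p was at the floor on all 4 cKO arrays, and miR-205-3p lay higher in cKO footpads close to the floor (the left and right panels differ in their y axes).

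The members' calls stand against a background in which many miRNAs passed the threshold of an adjusted p under 0.05. Over both stages 14.5% of the 385 tested miRNAs were called lower in cKO and 46% were called higher. At E16.5 these shares were 15.1% lower and 35.8% higher, and at E17.5 they were 10.1% lower and 36.1% higher. Of the members 3 were called lower and 1 higher, over both stages and at each stage. Among those called lower, miR-203-5p was tested only through the WT groups. Calls higher were thus common here, and the tested miRNAs had a median change of 0.165. How many of the 385 also showed no overlap between genotypes was not counted. The members' lack of overlap is therefore a description only. The calls of 1 hairpin's arms are not independent, since the arms share a precursor.

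The change of miR-203-3p was -2.90 at E16.5 (adjusted p = 2.7e-04) and -3.48 at E17.5 (adjusted p = 1.7e-04) by limma. miR-205-5p changed by -2.83 at E16.5 (adjusted p = 1.57e-04) and by -3.40 at E17.5 (adjusted p = 1.18e-04). For miR-205-3p the changes were 0.85 at E16.5 (adjusted p = 0.0147) and 0.82 at E17.5 (adjusted p = 0.0144). The call of miR-205-3p at single stages was not firm: it ended under 7 of 25 alternatives at E16.5, with adjusted p between 0.00267 and 0.933, and under 9 of 25 at E17.5, with adjusted p between 6.17e-04 and 0.428. Leaving out 1 pool ended the E16.5 call without cKO E16.5 replicate 1 (0.93, adjusted p = 0.053), cKO E16.5 replicate 2 (0.77, adjusted p = 0.0586) or WT E16.5 replicate 2 (0.77, adjusted p = 0.0566). It ended the E17.5 call without WT E17.5 replicate 1 (0.78, adjusted p = 0.0719) or WT E17.5 replicate 2 (0.86, adjusted p = 0.0621).

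**Figure D2:**
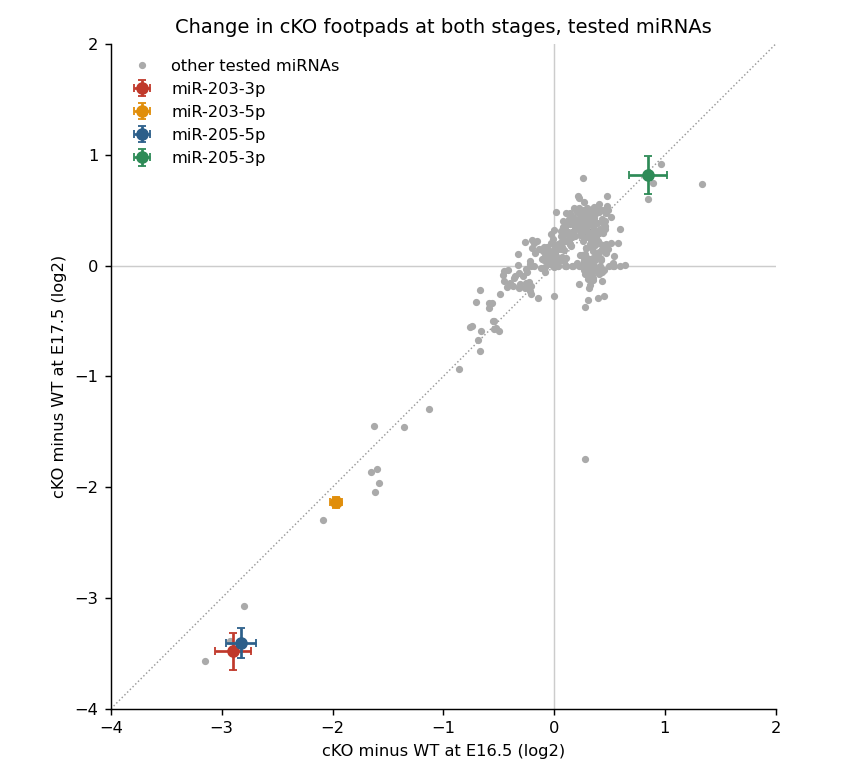
Log2 change, cKO minus WT, at E16.5 (x axis) and at E17.5 (y axis) for the 385 tested miRNAs; coloured points with standard errors are the 4 members, grey points all others, and the dotted line marks equal change at both stages. miR-203-3p and miR-205-5p lie together at the lower left, slightly below the line, and miR-205-3p lies at the upper right.

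Did the knockout difference itself change with stage? For the guide arms the change was more negative at E17.5 than at E16.5, by -0.58 ± 0.235 for miR-203-3p (SE, 95% interval -1.18 to 0.02, adjusted p = 0.188) and by -0.58 ± 0.190 for miR-205-5p (SE, 95% interval -1.06 to -0.09, adjusted p = 0.129). The difference was -0.17 for miR-203-5p (adjusted p = 0.201) and -0.03 for miR-205-3p (95% interval -0.65 to 0.59, adjusted p = 0.965). None of the 4 passed, in a contrast in which 1.56% of all tested miRNAs did. With positive control probes for the scaling the difference did pass for miR-203-3p (-0.90, adjusted p = 0.0212), miR-205-5p (-0.90, adjusted p = 0.0177) and miR-203-5p (-0.58, adjusted p = 0.0202). With normexp it passed for miR-203-3p (-0.59, adjusted p = 0.00175) and miR-205-5p (-0.58, adjusted p = 7.77e-04). Its size also turned on 1 pool: without cKO E17.5 replicate 1 it was -0.34 for miR-203-3p and -0.39 for miR-205-5p, and without cKO E17.5 replicate 2 it was -0.83 and -0.76.

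Between stages, the levels in cKO footpads were 1.21 at E17.5 and 1.64 at E16.5 for miR-205-5p (-0.44 on the log2 scale, adjusted p = 0.0551), and 1.18 at E17.5 and 1.54 at E16.5 for miR-203-3p (-0.40, adjusted p = 0.112). In WT footpads miR-203-3p stood at 13.04 at E17.5 and 11.51 at E16.5 (0.18, adjusted p = 0.525), and miR-205-5p at 12.8 at E17.5 and 11.6 at E16.5 (0.14, adjusted p = 0.544). In WT footpads miR-203-5p changed by 0.17 (adjusted p = 0.0879) and miR-205-3p by 0.11 (adjusted p = 0.727). None of these stage changes passed by limma, against 35.6% of all tested miRNAs in cKO footpads and 14.8% in WT footpads. These contrasts turned on the scaling: without any scaling, the WT stage change passed for all 4 members, between 0.56 and 0.78. The miR-205-5p change in cKO footpads passed under 9 of 25 alternatives, and without cKO E17.5 replicate 2 it was -0.63 (adjusted p = 0.0349). Without that pool the miR-203-3p change in cKO footpads was -0.65 (adjusted p = 0.0349), and without WT E17.5 replicate 1 the miR-203-5p change in WT footpads was 0.25 (adjusted p = 0.0435).

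The arms of the miR-205 hairpin parted further than those of any of the 49 hairpins whose arms were both tested under a shared name. Arms were paired where their names differed only in the ending 5p or 3p. The ratio of 5p to 3p within an array does not depend on the scaling of that array, other than through the floor or quantile normalization. In cKO footpads the log2 ratio for miR-205 was lower than in WT footpads by -3.95 ± 0.0600 over both stages (SE; limma over 49 hairpins, adjusted p = 2.9e-10), a 15.4-fold shift. The shift was present in 4 of 4 cKO arrays, and the two-sided exact permutation test of 4 against 4 arrays gave p = 0.0286, the smallest it allows over 70 arrangements. That test exchanged arrays across stages, which allows more arrangements, and so a smaller p, than exchange within stages would. It gave the same p for miR-203, whose 5p arm was at the floor in cKO footpads. How many of the 49 hairpins separate the genotypes in this way was not counted, so this p shows nothing particular to miR-205. The shift was -4.22 at E17.5 and -3.67 at E16.5. Over 24 alternatives it ran from -4.14 to -3.24, and none ended the call. The ratio says nothing of which arm was the more abundant, since 2 probes cannot be compared in level.

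For the miR-203 hairpin the ratio of 5p to 3p was higher in cKO footpads, by 1.14 ± 0.0953 (SE; limma, adjusted p = 4.63e-05). Here both arms were called lower, and the 5p arm was at the floor on every cKO array. The ratio is therefore bounded by the floor in cKO footpads: it was 2.24 with normexp and 0.35 with the deposited table. No order between the fall of the 2 arms of miR-203 can be read from these arrays.

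Among the 49 hairpins, 15 (30.6%) were called for a difference between their arms, and the median difference was -0.04. Both arms were called in 26 hairpins: lower in 2, higher in 21, and in opposite directions in 3. Besides miR-205 these 3 were miR-1839, with -0.23 for 5p and 0.36 for 3p, and miR-652, with 0.34 for 5p and -0.09 for 3p. In both the changes were far smaller than for miR-205, and miR-1839-5p was at the floor in both cKO groups. The calls of miR-1839-3p, miR-652-5p and miR-652-3p held under only 3 of 6 scalings each, and miR-652-5p was called lower under 1 of the others.

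**Figure D3:**
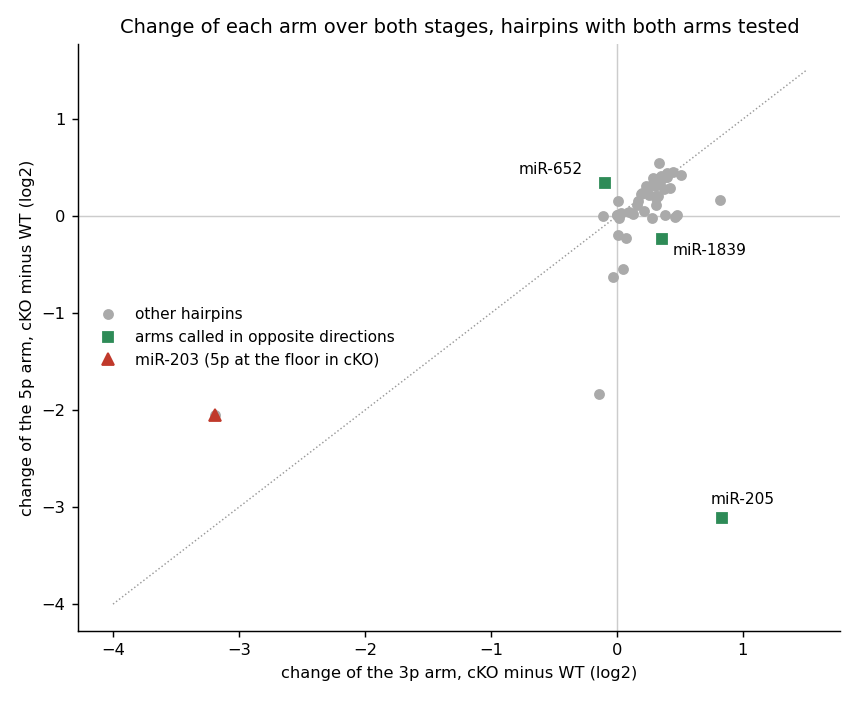
Log2 change over both stages, cKO minus WT, of the 3p arm (x axis) and of the 5p arm (y axis) for 49 hairpins; green squares are the 3 hairpins whose arms were called in opposite directions, the red triangle is miR-203, and the dotted line marks equal change of both arms. miR-205 stands alone at the lower right, with -3.12 for 5p and 0.83 for 3p.

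The other probes of each member bore on how far these values depend on the probe read. The 2 probes of miR-203-3p, of 18 and 17 bases, gave -3.19 and -3.17, and the 2 probes of miR-205-5p, of 16 and 15 bases, gave -3.12 and -3.20. The 4 probes of miR-203-5p differed: those of 21, 20 and 19 bases gave -2.05, -1.33 and -0.58, each past the threshold, and the 18-base probe was detected on 0 of 8 arrays and was not fitted. Their cKO signals were all at the floor, so these values are set by how bright the probe was in WT footpads. The shorter probe of miR-205-3p, of 15 bases, gave 0.46 (limma over 719 probes, adjusted p = 0.00698). It was detected on 6 of 8 arrays and at the floor on all 4 WT arrays after scaling.

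**Figure D4:**
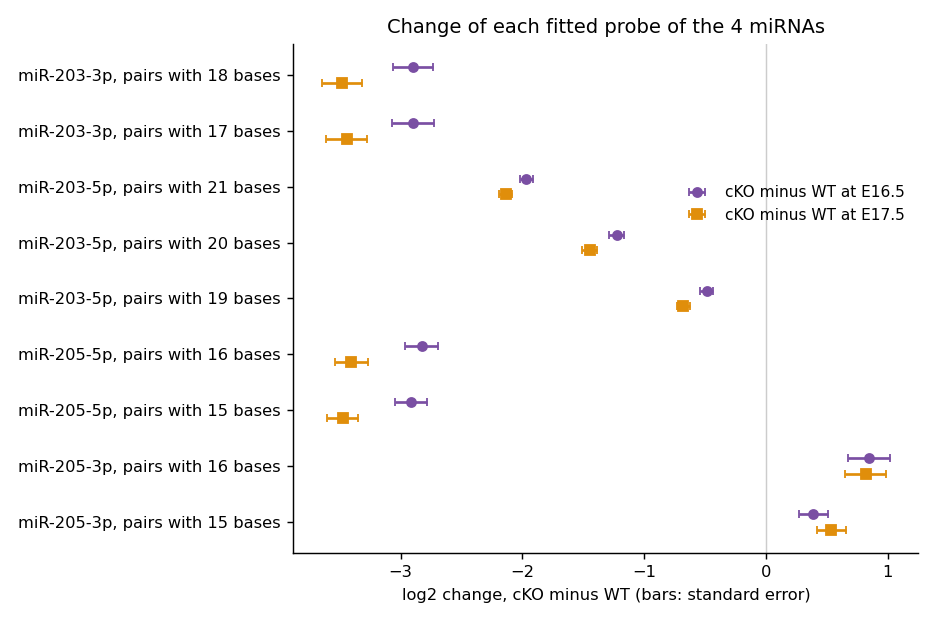
Log2 change, cKO minus WT, with its standard error (x axis) for each of the 9 fitted probes, labelled by miRNA and by the number of bases it pairs with (y axis); circles are E16.5 and squares are E17.5. The probes of miR-203-3p and miR-205-5p lie together, those of miR-203-5p spread with their brightness in WT footpads, and both miR-205-3p probes lie above 0.

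Because most of the tested miRNAs moved with the scaling, the members were read under 6 scalings. Their median change was 0.165 with the scaling used here, and it reached -0.247 with positive control probes, the lowest of the 6. The falls of miR-203-3p and miR-205-5p were called under all 6. miR-203-5p was also called lower under all 6, but it was tested only through WT arrays and not detected on cKO arrays. Its calls therefore add little. Set against that median, miR-203-3p lay between -3.43 and -3.33 and miR-205-5p between -3.36 and -3.28. The rise of miR-205-3p was positive under all 6 and called under 5, with changes from 0.35 to 0.83. Set against the median it lay between 0.54 and 0.67. With positive control probes only 7 miRNAs were called higher, and without scaling only 6, and miR-205-3p was among them both times. It was not called when arrays were scaled on all probes (0.52, adjusted p = 0.0572), nor with the floor raised by 1 on the log2 scale (0.13, adjusted p = 0.389), which lies above most of its values.

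**Figure D5:**
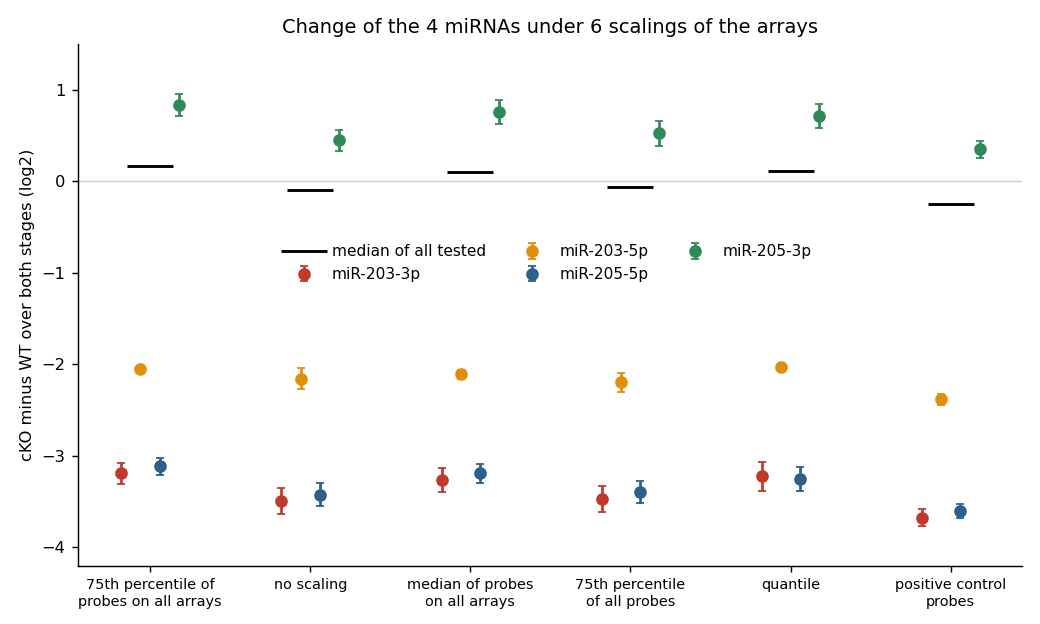
Log2 change over both stages, cKO minus WT, with standard errors (y axis) of the 4 members under 6 scalings of the arrays (x axis); black bars are the median of all tested miRNAs. The members keep their direction while the median runs from 0.165 to -0.247.

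Across the 8 arrays, the miRNA whose profile was closest to that of miR-203-3p was miR-205-5p, from another chromosome. Likeness was the root mean square difference of log2 profiles, each centred on its own mean over the 8 arrays, which share the same RNA pools. The pair differed by 0.0588, with a Pearson r of 0.9996 given as a description. Next came miR-141-3p (0.0773), miR-200c-3p (0.140), miR-429-3p (0.153) and miR-200a-3p (0.514), all of the miR-200 family, for miR-203-3p. The same 4 followed for miR-205-5p, with miR-141-3p at 0.0997 and miR-200a-3p at 0.479. Their changes over both stages ran from -3.36 for miR-200c-3p to -2.19 for miR-200a-3p, each called under all 6 scalings. On the cKO arrays, miR-200c-3p was detected 3 times of 4, and so was miR-429-3p, against 4 of 4 WT arrays for each.

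For miR-203-5p the closest profiles were miR-200a-3p (0.127), miR-31-5p (0.146), miR-200b-3p (0.184), miR-34a-5p (0.190) and miR-182-5p (0.213). miR-31 promotes keratinocyte growth, and miR-34a is a p53 target. Their changes ran from -2.19 to -1.72, and miR-31-5p was detected on 1 of 4 cKO arrays. Since miR-203-5p was at the floor in cKO footpads, this order rests on the floor.

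For miR-205-3p the closest profiles were miR-196b-3p (0.127), miR-181a-1-3p (0.140), miR-126a-5p (0.218), miR-30e-3p (0.224) and miR-379-3p (0.227), with r between 0.895 and 0.957. None of the 5 was one of the epithelial miRNAs listed below. miR-196b-3p changed by 0.82 and was detected on 4 of 4 cKO arrays and 0 of 4 WT arrays, and miR-181a-1-3p changed by 0.94. Both were called higher under all 6 scalings, whereas miR-126a-5p, miR-30e-3p and miR-379-3p were called under 3 of 6. In WT footpads miR-196b-3p was at the floor at both stages, so the size of its change is set by the floor. miR-181a-1-3p was close to the floor there, at -4.18 at E16.5 and -4.11 at E17.5 on the log2 scale. Since miR-205-3p also lay near the floor in WT footpads, this order rests in part on the floor.

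Other miRNAs known from skin epithelium fell along with the guide arms. The list held 5 members of the miR-200 family and 3 of the cluster of miR-96, miR-182 and miR-183, and 8 of 8 were called lower over both stages, against 14.5% of all tested miRNAs, with a median change of -1.98 beside 0.165 for all tested. Of the 8, miR-183-5p was detected on 0 of 4 cKO arrays and at the floor on all of them, so the size of its change is set by the floor. It was tested only because WT arrays detected it. Since the 8 come from a family and a cluster, their calls cannot be taken as independent. The changes ran from -3.36 ± 0.109 for miR-200c-3p (SE, adjusted p = 2.27e-05) to -1.41 ± 0.101 for miR-96-5p (SE, adjusted p = 3.04e-04). All 8 were called lower under each of the 6 scalings.

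Of 8 other miRNAs with known roles in keratinocyte growth or differentiation, 5 were called lower, 1 higher and 2 neither, against 14.5% lower and 46% higher among all tested miRNAs, with a median change of -0.19. miR-31-5p (-1.83) and miR-34a-5p (-1.72) were the most reduced, and miR-99a-5p (-0.0023) and miR-23b-3p (0.04) moved least and did not pass. miR-125b-5p, which restrains differentiation of mouse skin stem cells, changed by 0.30 (adjusted p = 0.00236). The count called lower ran from 3 to 8 over the 6 scalings, and the count called higher from 0 to 1. With positive control probes all 8 were called lower, miR-125b-5p among them, so its rise turned on the scaling.

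Markers of the tissue's cell types were read beside these values. The summed scaled signal of 5 epithelial markers, the miR-200 family, was 0.542 to 0.705 on cKO arrays and 3.40 to 4.06 on WT arrays. Of these 5 of 5 were called lower, against 14.5% of all tested miRNAs. They are the same miR-200 miRNAs as in the skin epithelium list above and give no separate evidence. For 6 fibroblast and dermal mesenchyme markers the summed signal was 59.9 to 65.2 on cKO arrays and 45.3 to 52.1 on WT arrays. Of those markers 5 of 6 were called higher, as were 2 of 2 endothelial, 4 of 4 skeletal muscle and 2 of 4 blood markers, against 46% of all tested miRNAs, a share that the blood markers' count is close to. These calls turned on the scaling. With positive control probes, with all probes or without scaling, 0 of these markers outside the epithelium were called higher. With positive control probes 2 of 6 fibroblast, 1 of 2 endothelial, 2 of 4 skeletal muscle and 3 of 4 blood markers were called lower. The median change of the fibroblast markers ran from -0.133 to 0.352 over the scalings. Of the 5 epithelial markers 3 were detected on all 4 cKO arrays, and miR-200c-3p and miR-429-3p on 3 of the 4. The part that a change in cell composition has in the fall of miR-203 and miR-205 was not tested.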

How the data were processed

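The authors deposited 1 scanner file for each array, made with Agilent Feature Extraction 11.5.1.1, per the file headers, on probes placed on mm9. From these the background-subtracted spot intensity, spatially detrended by that software per the file headers, was used. The authors' deposited value table holds the same intensities within 0.02, with values at or below 0 replaced by 1 constant for each array. Its scale is linear and it was neither scaled between arrays nor centred, and it served as an alternative.

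Spots that the software marked as non-uniform or population outliers were left out, and the other spots of a probe were averaged. Each miRNA was read by its probe with the highest mean. Each array was divided by its 75th percentile among the 474 probes seen on every array. For the floor, the 5th percentile of an array's detected probes was taken, then the median of these 8 values. A miRNA was tested where both arrays of some group detected it, which held for 385.

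limma 3.58.1 in R 4.3.3 was fitted on log2 values with 4 group means, with 4 residual degrees of freedom, a trended prior, and Benjamini-Hochberg adjustment over all 385. A call means an adjusted p under 0.05. Ratios of 5p to 3p were fitted alike over 49 hairpins, those whose arms share a name but for the ending. Tested arms with unlike names, such as miR-181a-5p and miR-181a-1-3p, were not paired. The 2 pools of each group and the number of arrays limit precision. The fits were checked on simulated data.

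The members, lists and tests were chosen with earlier results of these data known. Named besides the members were the 5 tested miRNAs with the smallest profile difference from each member, hairpins with arms called in opposite directions, and the list members that changed most and least. miR-125b-5p was named because it was the only list member called higher. Alternatives changed the scaling, floor, background correction, probe summary, filter, outlier handling, trend, replicate block and the arrays used. The scanner software's signal per miRNA, the fit without both E16.5 replicate 2 arrays and the fit of each probe were added after seeing the data.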

Additional observations from a re-analysis of the deposited data

Results flagged for a closer look

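The shift between the arms of miR-205 was larger at E17.5 than at E16.5 by a test of the difference itself. The log2 ratio of 5p to 3p, cKO minus WT, was -4.22 at E17.5 and -3.67 at E16.5, a difference of -0.55 ± 0.120 (SE; limma over 49 hairpins, adjusted p = 0.0484). The call was close to the threshold and ended under 15 of 24 alternatives. The difference stayed negative under all 24, between -0.71 without scaling and -0.14 with the scanner software's signal per miRNA, and its adjusted p ran from 9.32e-04 to 0.945. Leaving out any 1 of 6 arrays ended it, with adjusted p between 0.0979 and 0.204: either cKO E16.5 pool, either cKO E17.5 pool or either WT E17.5 pool. Neither arm alone passed the same test, with -0.58 for miR-205-5p (adjusted p = 0.129) and -0.03 for miR-205-3p (adjusted p = 0.965). Its cause was not tested.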

How the results depend on the processing

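The falls of miR-203-3p, miR-203-5p and miR-205-5p over both stages, and the arm difference of miR-205, kept direction and call under every alternative that gave a value. For miR-203-5p this adds little, since it was tested only through WT arrays and was not detected on cKO arrays. The arm difference of miR-203 as reported is set by the floor, and without a floor it was 0.35 or 2.24, so its values bear on no order of its arms. The rise of miR-205-3p over both stages did not pass with scaling on all probes (0.52, adjusted p = 0.0572) or with the floor 1 higher (0.13, adjusted p = 0.389). By stage, at E17.5 and E16.5, it also did not pass for unscaled arrays (0.43 and 0.47), for all probes as the base of the scaling (0.49 and 0.56) or for the floor 1 higher (0.19 and 0.07). At E17.5, but not at E16.5, it was lost with positive control probes (0.17) or the scanner's signal per miRNA (0.73). The rise at E17.5 was also lost in the limma fit of the E17.5 arrays alone (adjusted p = 0.0693), which gives no E16.5 value. Without both E16.5 replicate 2 arrays it was 0.82 at E17.5 (adjusted p = 0.0703) and 0.69 at E16.5 (adjusted p = 0.163). Its stage change in WT footpads turned to -0.29 (adjusted p = 0.0289) with normexp, against 0.11 as reported. The cause was not tested in these cases.

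Calls higher over both stages numbered 177, and calls lower 56. With arrays left unscaled they were 6 higher and 57 lower, with all probes as the base of the scaling 6 higher and 44 lower, and 7 higher and 256 lower with positive control probes. With a replicate block 163 were called higher, the miR-205-5p stage change in cKO footpads (-0.44) passed with adjusted p = 0.0326, and the miR-205 arm difference between stages (-0.55) did not pass, with adjusted p = 0.0935. The replicate numbers are also slide rows, and deviations of same-numbered pools correlated with r between -0.141 and 0.275, so the numbers were not taken as pairs. The filter on detection on all 8 arrays leaves out miR-203-5p and miR-205-3p and so gives them no value. Without a filter, miRNAs at the floor on all arrays could not be fitted. With 2 pools a group, and miR-203-5p and miR-205-3p near background, sizes for these arms are uncertain.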
